A study of Mus musculus with 32 samples.

Results

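The members described here are 57 miRNA probes of the Dlk1-Dio3 imprinted region on mouse chromosome 12, chosen by name among the miRNAs that have probes on both an Affymetrix and a Febit array, which hold 551 further miRNAs in common. A row of either value table was taken as a member when its name, without the species prefix, the probe suffix and with the different spellings of the star strand read as 1, equalled a name on the list of the region. No measured value entered that choice. Total RNA had been collected from undifferentiated mouse ES cells (day 0) and from Cor.At cardiomyocytes derived from them (days 12, 19 and 26), with 2 cultures (a and b) per day. Each of the 8 RNAs was run once on each platform, and each platform was normalized in 2 ways, which gives 4 data sets of 8 arrays: Affymetrix VSN, Affymetrix RMA, Febit VSN and Febit non-VSN. Values are log2, and VSN values flatten towards the background, and near it a difference of such values understates the ratio of signals. On the Affymetrix arrays RMA values spanned a still narrower range for members of lowest signal, such as miR-136 (3.72 to 4.17 on RMA and 0.08 to 2.16 on VSN). All fold changes are differences of log2 day means, and a miRNA is called up or down regulated where the p-value of limma, adjusted over all tested miRNAs, is under 0.05. Errors after ± are SE of that fold change, with 2 cultures per day.

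All groups shared 1 genotype. They came from a single transgenic clone of the D3 line, aPIG 44, in which the cardiac alpha-MHC promoter drives a puromycin resistance gene together with EGFP. The day 0 cells had been expanded on mouse embryonic fibroblasts and were then replated on gelatin without them for 48 h. The other groups went through embryoid bodies and spinner culture and received puromycin from day 9 on, which leaves cells in which the cardiac promoter is active. Day 12 cells were taken 6 h after plating. For days 19 and 26 the paper describes 7 and 14 more days on fibronectin, while the records mostly describe a longer spinner culture, and the titles were followed here. In RNA of whole cultures, fewer cells that carry a miRNA and less of it per cell cannot be told apart.

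The region is a textbook case of genomic imprinting. Its protein-coding genes Dlk1, Rtl1 and Dio3 are read from the paternal chromosome, whereas its long noncoding transcripts and the miRNAs cut from them come from the maternal one. One group of miRNA hairpins lies antisense to Rtl1, a gene of retrotransposon origin that is needed in the placenta, and the miRNAs of this group are perfectly complementary to its mRNA and can direct its cleavage. A larger group downstream, named after its first and last hairpin miR-379 and miR-410, lies in the transcript known as Mirg. The miRNAs of the region are most abundant in brain, placenta and the embryo, and silencing of the maternal transcripts has been described in mouse pluripotent stem cells of reduced developmental potential.

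In the RefSeq table for GRCm38.p6, 54 of the 57 members were found, among names of which 18 give the arm and the other 39 are older names that were assigned to an arm. miR-376c, miR-487b and miR-485 were not matched. The matched members lie on the plus strand at chr12:109563710-109743784, a stretch of 180.1 kb. The 7 members of the Rtl1 antisense group (miR-431, miR-433, miR-127, miR-434-5p, miR-434-3p, miR-136 and miR-136*) lie at chr12:109590459-109595387, and the matched ones among the 38 members of the miR-379 to miR-410 group at chr12:109709065-109743784. The other 12 members lie before and between these groups. The Rtl1 antisense miRNAs are shown first because the comparison of groups turns on them, 5′ to 3′ as in RefSeq, with the seed (bases 2 to 8) in capitals.

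miR-431: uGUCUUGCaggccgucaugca
miR-433: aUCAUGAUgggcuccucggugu
miR-127: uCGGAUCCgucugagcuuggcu
miR-434-5p: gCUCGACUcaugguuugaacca
miR-434-3p: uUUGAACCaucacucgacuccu
miR-136: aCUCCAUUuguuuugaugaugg
miR-136*: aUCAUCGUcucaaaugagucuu

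No seed recurred in this group, nor did any of the 54 matched members share its seed with another, so that there were 54 distinct seeds. Outside the member list, 11 members shared the seed with another mature mouse miRNA of the table, among them miR-379 with miR-1193-5p, miR-329 with miR-362-3p and miR-495 with miR-1192. Some members of the miR-379 to miR-410 group differ from each other by a single seed base. They are shown in pairs so that the probes with the closest targets can be compared base by base, with positions counted from 1 at the 5′ end.

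miR-379: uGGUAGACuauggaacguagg
miR-411: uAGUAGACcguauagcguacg
miR-376b: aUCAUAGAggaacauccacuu
miR-376a: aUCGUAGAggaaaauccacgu
miR-300: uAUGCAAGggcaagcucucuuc
miR-381: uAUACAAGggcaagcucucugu
miR-154*: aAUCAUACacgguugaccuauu
miR-369-3p: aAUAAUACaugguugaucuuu

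Between miR-379 and miR-411 the seed change is G2A, and 7 of 21 bases differ over the whole length. miR-376b and miR-376a are closer, with the seed change A4G and 3 of 21 bases different. For miR-300 and miR-381 the seed change is G4A with 3 of 22 bases different, and for miR-154* and miR-369-3p it is C4A with 4 of 21. How well the probes tell these pairs apart was not tested. Some further members are printed as a last set, since the results below return to them.

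miR-673-5p: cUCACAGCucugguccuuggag
miR-665: aCCAGGAGgcugaggucccu
miR-370: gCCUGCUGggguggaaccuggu
miR-299: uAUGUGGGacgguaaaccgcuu
miR-543: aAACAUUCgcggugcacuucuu
miR-539: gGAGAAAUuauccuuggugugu
miR-382: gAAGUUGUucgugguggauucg
miR-134: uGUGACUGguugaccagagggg
miR-541: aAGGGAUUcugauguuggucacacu
miR-409-5p: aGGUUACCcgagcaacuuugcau
miR-409-3p: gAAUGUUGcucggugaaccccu

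The scaling of the arrays touches all results that follow. For the median of the tested miRNAs VSN gave a change of 0.34, 0.22 and 0.41 from day 0 to days 12, 19 and 26, whereas on RMA it was no more than 0.01 in size, so that a member near those VSN medians moved with the bulk of the array. The shift was uneven along the signal range. For the 83 tested miRNAs with a mean RMA value above 7, the median of VSN minus RMA was -1.66 and -1.42 on the day 0 arrays and lay between -0.28 and 0.40 on the 6 later ones, while for the dimmer miRNAs it lay between -1.89 and -1.43 on all 8 arrays. Of the members, 8 were in the bright set (miR-127, miR-379, miR-382, miR-409-3p, miR-431, miR-487b, miR-494 and miR-541). Calls are therefore given on VSN and on RMA side by side. Defining miRNAs of the cells followed the labels. All 8 listed miRNAs of the miR-290 to miR-295 ES-cell cluster fell at each later day by Affymetrix VSN, and of 6 striated muscle miRNAs 4, 3 and 5 rose by day 12, 19 and 26.

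Tests were restricted to miRNAs to which the study gives a present call on either platform. Of the tested members 24 had such a call on both platforms, 24 on Affymetrix only and 4 on Febit only. Members absent throughout on 1 platform were still tested on it. The 5 members without a present call, miR-540-5p, miR-673-3p, miR-758, miR-376c and miR-496, were left out of the tests, so that 52 members were tested: all 7 of the Rtl1 antisense group, 35 of 38 of the miR-379 to miR-410 group and 10 of the other 12. On the Affymetrix VSN arrays miR-376c lay between 1.04 and 2.38 and miR-496 between 0.35 and 2.39, below the array medians of 2.73 to 3.63.

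On Affymetrix VSN, more members rose than fell against day 0, and the share of members called in either direction was below that of all tested miRNAs at each day. At day 12, 11 of 52 members (21.2%) were up regulated, where 26.2% of all tested miRNAs were, and none was down regulated, where 6.19% of all were. At day 19, 4 members (7.69%) rose against 22.7% of all, and none fell against 10.9% of all. At day 26, 14 members (26.9%) rose against 29.5% of all and 3 (5.77%) fell against 10.3% of all. The miR-379 to miR-410 group, which holds 35 of the 52 tested members, gave 9, 3 and 13 of these rises at the 3 days, led by miR-379, miR-411, miR-539 and miR-381, and those that fell at day 26 were miR-433, miR-673-5p and miR-323-3p. Over the 3 days 17 members rose at least once, 3 fell and 32 were never called. For the median member the fold change was 0.51, 0.42 and 0.42, beside 0.34, 0.22 and 0.41 for all tested miRNAs, and 35, 34 and 31 of 52 members lay above 0.

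**Figure D1:**
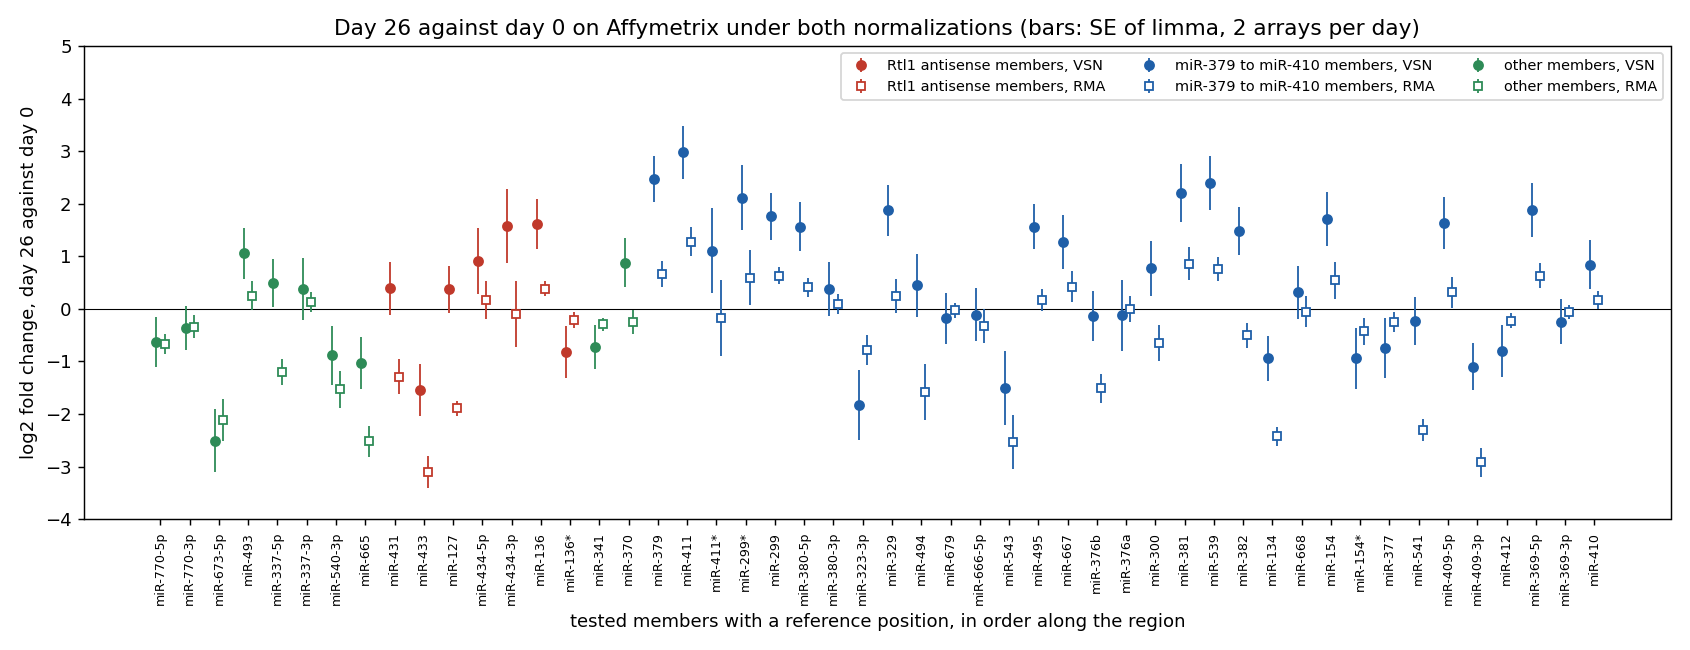
Log2 fold change at day 26 against day 0 (y axis, with SE bars) of the 50 tested members that were matched to the reference, in their order along chromosome 12 (x axis), on Affymetrix VSN and on Affymetrix RMA. miR-411, miR-379 and miR-539 stand highest on VSN, and miR-433, miR-409-3p, miR-543 and miR-665 are among the lowest on RMA.

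With RMA values of the same arrays the balance of the region was the other way round. Here 3 members rose at each of the 3 days (5.77% of 52, beside 17.7%, 17.9% and 19.8% of all tested miRNAs), and 11, 11 and 13 fell (21.2%, 21.2% and 25% of 52, beside 15.7%, 18.4% and 20.4% of all). The median member changed by 0.02, -0.09 and -0.20. No member was called in opposite directions on VSN and RMA, but the sign of the fold change differed for 8, 10 and 12 of 52 members at the 3 days. Across the 52 members, which share these arrays, the rank order of fold changes was close on both (Spearman's rho 0.80, 0.85 and 0.81). The offset between the scalings was not the same for all members. At day 26 the median of the 8 bright members was 0.42 on VSN and -1.44 on RMA, and that of the 44 dimmer ones was 0.44 and -0.08. Among all tested miRNAs it was 2.13 and 0.20 for the bright ones and 0.28 and -0.01 for the dimmer ones. When the VSN arrays were centred on their medians, an alternative, 2, 2 and 3 members rose and 5, 2 and 13 fell.

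A small set of calls was the same on VSN, on RMA and on centred VSN. miR-379 rose at days 12 and 19, miR-411 at days 12 and 26, miR-370 at day 19 and miR-539 at day 26, and miR-433 and miR-673-5p fell at day 26. The paragraphs below take the members by their place in the region and give the values of each array in the order culture a, culture b.

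The Rtl1 antisense group, whose miRNAs pair with the Rtl1 mRNA, held both directions on Affymetrix VSN. Of its 7 members 1, 0 and 1 rose at days 12, 19 and 26 and 0, 0 and 1 fell. Of all tested miRNAs 26.2%, 22.7% and 29.5% rose and 6.19%, 10.9% and 10.3% fell. On RMA 0 of the 7 rose and 2, 2 and 3 fell, beside 17.7%, 17.9% and 19.8% of all that rose and 15.7%, 18.4% and 20.4% that fell. The member that fell on both scalings was miR-433. On Affymetrix VSN miR-433 measured 7.05 and 7.14 at day 0, 7.28 and 6.43 at day 12, 6.59 and 5.76 at day 19 and 5.38 and 5.73 at day 26. The day 26 arrays were the lowest, and the day 12 values overlapped those of day 0. The fold change was -1.54 ± 0.49 (SE, limma adjusted p = 0.0243) at day 26, a call that was lost without day 0 a, day 0 b, day 26 a or day 26 b (adjusted p up to 0.131), and -0.24 and -0.93 at days 12 and 19, neither of them called.

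On RMA the fall of miR-433 was seen at every later day. Its RMA values were 8.80 and 8.68 at day 0, 7.23 and 6.62 at day 12, 7.01 and 6.25 at day 19 and 5.51 and 5.76 at day 26, with both day 0 arrays above all others. The fold changes were -1.82 ± 0.31 (adjusted p = 0.00462), -2.11 ± 0.31 (adjusted p = 0.00205) and -3.11 ± 0.31 (adjusted p = 0.000314) by limma, and each was kept when any 1 array was left out.

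miR-127, the best-known miRNA of this group and one whose deletion in the mouse leads to Rtl1 excess in the placenta, fell on RMA and was not called on VSN. On RMA it stood at 10.91 and 10.87 at day 0, 10.29 and 10.21 at day 12, 9.85 and 9.75 at day 19 and 9.10 and 8.90 at day 26. Every later array lay below both day 0 arrays, and the level was lower at day 26 than at day 12. The RMA fold changes were -0.64 ± 0.14 (adjusted p = 0.0137), -1.09 ± 0.14 (adjusted p = 0.00118) and -1.89 ± 0.14 (adjusted p = 9.28e-05) by limma, of which the first was lost without day 12 a or day 12 b (adjusted p up to 0.0732). On Affymetrix VSN the same arrays gave 8.97 and 9.28 at day 0, 10.24 and 9.73 at day 12, 10.0 and 9.40 at day 19 and 9.63 and 9.34 at day 26. All 6 later arrays lay above day 0 there, and the fold changes of 0.86, 0.58 and 0.37 were not called (adjusted p = 0.182, 0.366 and 0.548). They were smaller than the median VSN changes of the 83 bright miRNAs, which were 1.80, 1.79 and 2.13.

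miR-431, the first hairpin of the group, was called in different directions at different days and on different scalings. Its Affymetrix VSN values were 6.11 and 6.50 at day 0, 8.03 and 7.54 at day 12, 6.94 and 6.14 at day 19 and 7.14 and 6.26 at day 26, highest on the day 12 arrays. The rise at day 12 was 1.47 ± 0.50 (SE, limma adjusted p = 0.0416) and was lost without day 0 a, day 0 b, day 12 a or day 12 b (adjusted p up to 0.221). On RMA the fold change at day 12 was -0.09 (not called), and miR-431 fell at day 26, with -1.29 ± 0.34 (adjusted p = 0.0221), a call that was lost without day 0 a, day 0 b or day 26 b (adjusted p up to 0.114).

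Both arms of miR-136 were measured, and the study lists both as absent on all Affymetrix arrays. Their Affymetrix VSN values lay below the array medians of 2.73 to 3.63 throughout, and their changes at day 26 differed in sign. On Affymetrix VSN miR-136 gave 0.34 and 0.08 at day 0, 0.77 and 0.25 at day 12, 0.90 and 0.31 at day 19 and 1.49 and 2.16 at day 26, with the day 26 arrays highest, and rose by 1.61 ± 0.47 (SE, limma adjusted p = 0.0161). This call was lost without day 0 b or day 26 b (adjusted p up to 0.131), and on RMA the fold change was 0.38 (adjusted p = 0.0728). Its partner arm miR-136* gave 1.58 and 1.07 at day 0, 1.03 and 2.15 at day 12, 0.80 and 1.10 at day 19 and 0.69 and 0.31 at day 26 and was not called, with -0.82 at day 26 (adjusted p = 0.211).

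The miR-434 arms were not called on either Affymetrix scaling. miR-434-3p measured 4.69 and 5.83 at day 0, 7.15 and 6.22 at day 12, 6.93 and 4.68 at day 19 and 7.03 and 6.66 at day 26 on Affymetrix VSN, above both day 0 arrays at days 12 and 26, with a fold change of 1.58 ± 0.70 (adjusted p = 0.0996) by limma. miR-434-5p measured 3.43 and 2.89 at day 0, 3.78 and 1.97 at day 12, 3.56 and 2.60 at day 19 and 4.42 and 3.72 at day 26, and its groups overlapped.

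Of the 35 tested members of the miR-379 to miR-410 group, 9, 3 and 13 rose at days 12, 19 and 26 on Affymetrix VSN, where 0, 0 and 1 fell. As shares, 25.7%, 8.57% and 37.1% of the group rose, beside 26.2%, 22.7% and 29.5% of all tested miRNAs. On RMA 3, 2 and 3 rose and 6, 6 and 5 fell, where 17.7%, 17.9% and 19.8% of all tested miRNAs rose and 15.7%, 18.4% and 20.4% fell. miR-379, at the start of the group, was the steadiest. On Affymetrix VSN it read 6.46 and 6.11 at day 0, 8.77 and 8.28 at day 12, 8.77 and 8.67 at day 19 and 8.94 and 8.58 at day 26, so that all later arrays lay above both of day 0. It rose by 2.24 ± 0.44 (adjusted p = 0.00177), 2.43 ± 0.44 (adjusted p = 0.000995) and 2.48 ± 0.44 (adjusted p = 0.000675) by limma, and the 3 calls were kept when any 1 array was left out. The RMA values were 8.04 and 7.39 at day 0, 8.71 and 8.42 at day 12, 9.0 and 8.99 at day 19 and 8.50 and 8.25 at day 26, again without overlap between day 0 and later, with smaller rises of 0.85 ± 0.25 (adjusted p = 0.038), 1.28 ± 0.25 (adjusted p = 0.00666) and, not called, 0.66 ± 0.25 (adjusted p = 0.0756). The RMA call at day 12 was lost without day 0 b, day 12 a, day 12 b, day 19 a, day 19 b, day 26 a or day 26 b (adjusted p up to 0.196).

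miR-411, the next hairpin, whose seed differs from that of miR-379 by G2A, moved in the same way. Its Affymetrix VSN values were 2.11 and 2.86 at day 0, 5.06 and 4.57 at day 12, 4.50 and 3.71 at day 19 and 5.82 and 5.11 at day 26, all later arrays above day 0. The rises were 2.33 ± 0.51 (adjusted p = 0.00349), 1.62 ± 0.51 (adjusted p = 0.0275) and 2.97 ± 0.51 (adjusted p = 0.000528) by limma. At days 12 and 26 they were kept when any 1 array was left out, and the call at day 19 was lost without day 0 a or day 19 a (adjusted p up to 0.167). On RMA miR-411 read 4.18 and 4.41 at day 0, 5.57 and 5.20 at day 12, 5.38 and 4.83 at day 19 and 5.82 and 5.33 at day 26 and rose by 1.09 ± 0.27 (adjusted p = 0.0217) and 1.28 ± 0.27 (adjusted p = 0.00911), the former being lost without day 0 a, day 0 b or day 12 a (adjusted p up to 0.126) and the latter being lost without day 26 a (adjusted p up to 0.0596).

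In the miR-299 hairpin, miR-299 lay higher after differentiation, while the values of miR-299* at day 0 and later overlapped. miR-299 measured 2.40 and 1.98 at day 0, 3.63 and 3.51 at day 12, 3.42 and 3.90 at day 19 and 4.17 and 3.73 at day 26 on Affymetrix VSN, with no overlap between day 0 and later. It rose by 1.38 ± 0.44 (adjusted p = 0.0331), 1.47 ± 0.44 (adjusted p = 0.024) and 1.76 ± 0.44 (adjusted p = 0.0077) by limma. The call at day 12 was lost without day 0 b, day 12 a or day 12 b (adjusted p up to 0.148), that at day 19 was lost without day 0 b or day 19 b (adjusted p up to 0.136) and that at day 26 was lost without day 26 a (adjusted p up to 0.0686). On RMA it was the 1 member up regulated at all 3 days, by 0.52, 0.67 and 0.63, and none of these calls was kept in all 8 fits. The RMA call at day 12 was lost in each of the 8 fits that left out 1 array (adjusted p up to 0.211), that at day 19 was lost without day 0 b, day 19 a or day 19 b (adjusted p up to 0.0749) and that at day 26 was lost without day 0 b or day 26 a (adjusted p up to 0.116). miR-299* measured 3.11 and 4.98 at day 0, 5.40 and 4.87 at day 12, 6.0 and 5.05 at day 19 and 6.27 and 6.04 at day 26 on VSN, the 2 day 0 cultures being far apart, and rose at day 26 by 2.11 ± 0.61 (SE, limma adjusted p = 0.0161), a call that was lost without day 0 a or day 26 a (adjusted p up to 0.147) and that RMA did not make (0.60).

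miR-539 and miR-381, in the middle of the group, rose from a low signal. On Affymetrix VSN miR-539 measured 1.57 and 1.44 at day 0, 3.19 and 3.21 at day 12, 2.91 and 2.27 at day 19 and 4.54 and 3.27 at day 26, day 0 lying below all later arrays. It rose by 1.69 ± 0.51 (adjusted p = 0.0236) at day 12 and 2.40 ± 0.51 (adjusted p = 0.00236) at day 26 by limma. The call at day 12 was lost without day 0 a, day 0 b, day 12 a or day 12 b (adjusted p up to 0.105), and that at day 26 was kept in all 8 fits that left out 1 array each (adjusted p up to 0.0383). On RMA it rose at day 26 alone, by 0.77 ± 0.23 (adjusted p = 0.0368), a call that was lost without day 0 a, day 0 b, day 12 a, day 12 b or day 26 a (adjusted p up to 0.18). miR-381 measured 2.59 and 2.56 at day 0, 4.73 and 3.63 at day 12, 4.19 and 4.0 at day 19 and 5.44 and 4.11 at day 26 on VSN, which again kept day 0 below the rest. It rose by 1.61 ± 0.55 (adjusted p = 0.0432) at day 12, which was lost without day 0 a, day 0 b or day 12 a (adjusted p up to 0.304), and by 2.20 ± 0.55 (adjusted p = 0.00746) at day 26, which was lost without day 26 a (adjusted p up to 0.0874). On RMA miR-381 was not called (0.66 and 0.86).

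Further rises at day 26 on Affymetrix VSN came from miR-329 and miR-369-5p. miR-329 measured 5.06 and 5.67 at day 0, 6.98 and 6.47 at day 12, 6.98 and 6.13 at day 19 and 7.50 and 6.97 at day 26, with day 0 below all later arrays. It rose by 1.87 ± 0.49 (SE, limma adjusted p = 0.00969), a call that was lost without day 0 a or day 26 a (adjusted p up to 0.0789). For miR-369-5p the values were 2.21 and 2.49 at day 0, 4.21 and 3.04 at day 12, 3.60 and 3.55 at day 19 and 4.62 and 3.85 at day 26, and day 0 was again lowest. It rose by 1.88 ± 0.51 (SE, limma adjusted p = 0.0113), which was lost without day 0 a or day 26 a (adjusted p up to 0.0996). On RMA neither was called at day 26 (0.24 and 0.63). Called as well on Affymetrix VSN were miR-495 and miR-487b at day 12 (1.25 and 1.61) and miR-495, miR-154 and miR-380-5p at day 26 (1.56, 1.71 and 1.56), of which none was called on RMA. The call of miR-495 at day 12 was lost in each of the 8 fits that left out 1 array (adjusted p up to 0.156).

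The falls in this group were seen on RMA. miR-134, known in mouse ES cells for promoting differentiation through Nanog and Sox2 and in neurons for its part in dendritic spine size, read 8.12 and 8.28 at day 0, 6.76 and 6.72 at day 12, 6.97 and 7.07 at day 19 and 5.99 and 5.57 at day 26. Both day 0 arrays lay above all later ones, and the day 26 arrays were the lowest. It fell at each day, with -1.46 ± 0.18 (adjusted p = 0.00129), -1.17 ± 0.18 (adjusted p = 0.00252) and -2.42 ± 0.18 (adjusted p = 8.96e-05) by limma, each kept when any 1 array was left out. On Affymetrix VSN the values were 6.48 and 6.81 at day 0, 6.62 and 6.52 at day 12, 6.56 and 6.66 at day 19 and 5.98 and 5.42 at day 26, and the fold changes of -0.08, -0.03 and -0.94 were not called. On centred VSN it fell at day 26.

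miR-541 also fell on RMA, where it read 10.55 and 10.59 at day 0, 9.63 and 9.14 at day 12, 9.41 and 9.09 at day 19 and 8.31 and 8.20 at day 26. Each later array lay below both of day 0. It fell at each day, with -1.19 ± 0.21 (adjusted p = 0.00517), -1.32 ± 0.21 (adjusted p = 0.00282) and -2.31 ± 0.21 (adjusted p = 0.000223) by limma, all kept without any 1 array. On VSN it read 8.70 and 8.99 at day 0, 9.46 and 8.91 at day 12, 9.41 and 8.77 at day 19 and 8.71 and 8.52 at day 26 and changed by 0.34, 0.24 and -0.24, none called.

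Altogether 10 members fell at all 3 days on RMA, namely miR-433, miR-127, miR-134, miR-541, miR-409-3p, miR-376b, miR-543, miR-665, miR-673-5p and miR-337-5p. By day, 21.2%, 21.2% and 25% of the 52 members fell, beside 15.7%, 18.4% and 20.4% of all tested miRNAs. miR-494 fell at days 12 and 19, and miR-431, miR-540-3p and miR-770-5p at day 26. For miR-433, miR-134, miR-541, miR-409-3p and miR-376b the calls of all 3 days were kept in all 8 fits that left out 1 array each, and the other members of these lists lost calls. For miR-337-5p the call at day 12 was lost without day 0 b, day 12 a, day 12 b, day 26 a or day 26 b (adjusted p up to 0.136) and that at day 19 was lost without day 0 b, day 12 a, day 12 b, day 19 a, day 19 b, day 26 a or day 26 b (adjusted p up to 0.156). For miR-543 the call at day 12 was lost without day 0 a, day 0 b, day 12 a, day 12 b, day 26 a or day 26 b (adjusted p up to 0.143) and that at day 19 was lost without day 0 b (adjusted p up to 0.0781). For miR-494 the call at day 12 was lost without day 0 a, day 0 b, day 12 a, day 12 b, day 19 a or day 19 b (adjusted p up to 0.208) and that at day 19 was lost without day 0 b or day 19 a (adjusted p up to 0.0674). The call of miR-665 at day 19 was lost without day 0 b or day 19 a (adjusted p up to 0.124), that of miR-540-3p at day 26 was lost without day 0 b or day 26 b (adjusted p up to 0.0748) and that of miR-770-5p was lost without day 0 b, day 12 a, day 12 b, day 19 a, day 19 b or day 26 b (adjusted p up to 0.171). The losses of miR-127, miR-673-5p and miR-431 are given with their values. The fall of miR-409-3p was -2.26, -2.06 and -2.92, and that of miR-543 -1.90, -2.24 and -2.53. On VSN the same 2 members were not called (miR-409-3p -1.10 and miR-543 -1.51 at day 26). At day 26 both fell on centred VSN.

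miR-323-3p was the only member of this group that fell on Affymetrix VSN. It measured 2.88 and 3.93 at day 0, 2.54 and 2.57 at day 12, 2.36 and 0.96 at day 19 and 2.47 and 0.70 at day 26, both day 0 arrays lying above all later ones. The fold change at day 26 was -1.82 ± 0.67 (SE, limma adjusted p = 0.0476), and was lost without day 0 a, day 0 b, day 12 a, day 12 b or day 26 b (adjusted p up to 0.351). On RMA the change of -0.78 was not called.

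Among the other members, miR-370, which lies with miR-341 between the Rtl1 antisense and the miR-379 to miR-410 group, rose for a time. On Affymetrix VSN it measured 4.02 and 4.64 at day 0, 6.38 and 5.66 at day 12, 6.56 and 6.54 at day 19 and 5.30 and 5.12 at day 26, highest at day 19. It rose by 1.69 ± 0.46 (adjusted p = 0.0139) at day 12 and by 2.22 ± 0.46 (adjusted p = 0.00264) at day 19 by limma, and changed by 0.88 ± 0.46 (adjusted p = 0.154) at day 26. The call at day 12 was lost without day 0 a or day 12 a (adjusted p up to 0.14), and that at day 19 was kept in all 8 fits that left out 1 array each (adjusted p up to 0.0252). RMA gave 5.49 and 5.79 at day 0, 6.56 and 5.98 at day 12, 6.99 and 6.96 at day 19 and 5.48 and 5.29 at day 26, where the day 26 arrays were no higher than those of day 0. There it rose at day 19 alone, by 1.34 ± 0.23 (SE, limma adjusted p = 0.0037).

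miR-673-5p, near the upstream end of the region, fell. On Affymetrix VSN it measured 4.44 and 5.65 at day 0, 3.37 and 4.51 at day 12, 4.91 and 3.71 at day 19 and 2.53 and 2.56 at day 26, with the day 26 arrays lowest and the day 12 and day 19 arrays overlapping day 0. The fold change at day 26 was -2.50 ± 0.60 (SE, limma adjusted p = 0.00537), and was lost without day 0 b (adjusted p up to 0.0703). On RMA it fell at each day, with -1.54 ± 0.40 (adjusted p = 0.0255), -1.29 ± 0.40 (adjusted p = 0.0461) and -2.12 ± 0.40 (adjusted p = 0.00567), where the call at day 12 was lost without day 0 b, day 12 a, day 26 a or day 26 b (adjusted p up to 0.142) and that at day 19 was lost without day 0 b, day 12 a, day 12 b, day 19 b, day 26 a or day 26 b (adjusted p up to 0.209). miR-665, further downstream, fell on RMA with fold changes of -1.70, -1.14 and -2.52 and was called on VSN at none of the 3 days.

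**Figure D2:**
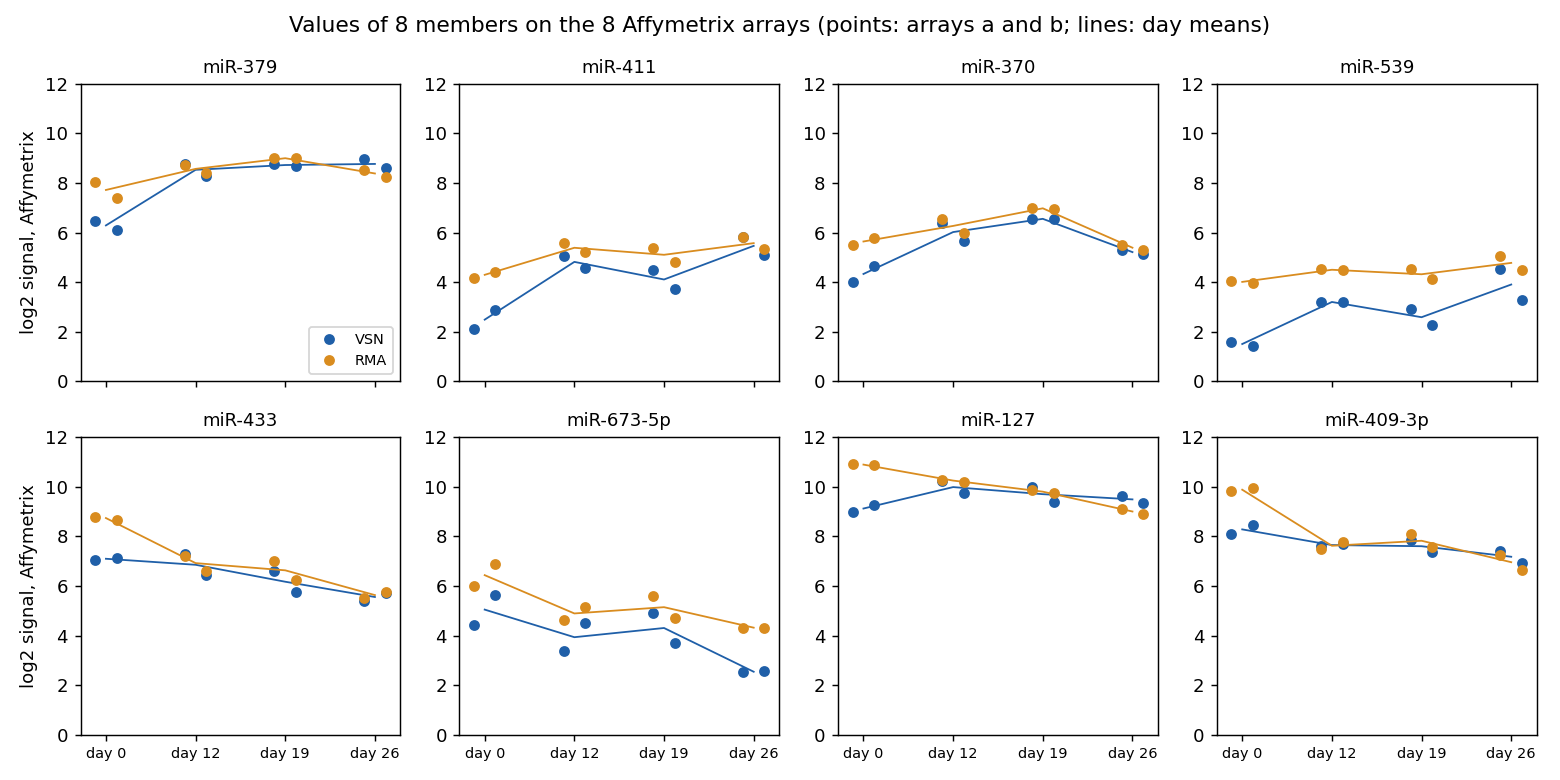
Log2 values (y axis) on each array by day (x axis), culture a and culture b as separate points, for 8 members on Affymetrix VSN and Affymetrix RMA, with lines through the day means. miR-379 and miR-411 lie above day 0 on all later arrays with both scalings, miR-433 is lowest at day 26, and miR-127 lies below day 0 on all later arrays with RMA and above it with VSN.

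Set against each other, the group medians lay closer on RMA than on VSN, but the spread of the fold changes differed too. The median SE of the members was 0.26 on RMA and 0.50 on VSN. The median fold change of the Rtl1 antisense group on Affymetrix VSN was 0.29, 0.23 and 0.39 at days 12, 19 and 26, that of the miR-379 to miR-410 group 0.77, 0.68 and 0.77, and that of the other members -0.04, 0.25 and -0.49, beside 0.34, 0.22 and 0.41 for all tested miRNAs. The Rtl1 antisense group therefore lay below the larger group by 0.48, 0.45 and 0.38. Taken array by array against the day 0 means, the difference was another measure. It was -0.455 and -0.006 at day 12, -0.432 and -0.485 at day 19 and -0.354 and -0.151 at day 26. Between the cultures of a day this per-array difference had a pooled SD of 0.19, which is not the error of the differences above. On RMA the Rtl1 antisense group lay below the larger group by 0.19, 0.36 and 0.16. With 2 cultures a day no exact test of this difference can reach 0.05, and members of 1 transcript are not replicates, so it was not tested. At each day it depended on the day 0 arrays. As the Rtl1 antisense median minus that of the larger group, the difference without day 0 a was 0.104, -0.224 and -0.014 at days 12, 19 and 26, and without day 0 b it was -0.834, -0.519 and -0.494.

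**Figure D3:**
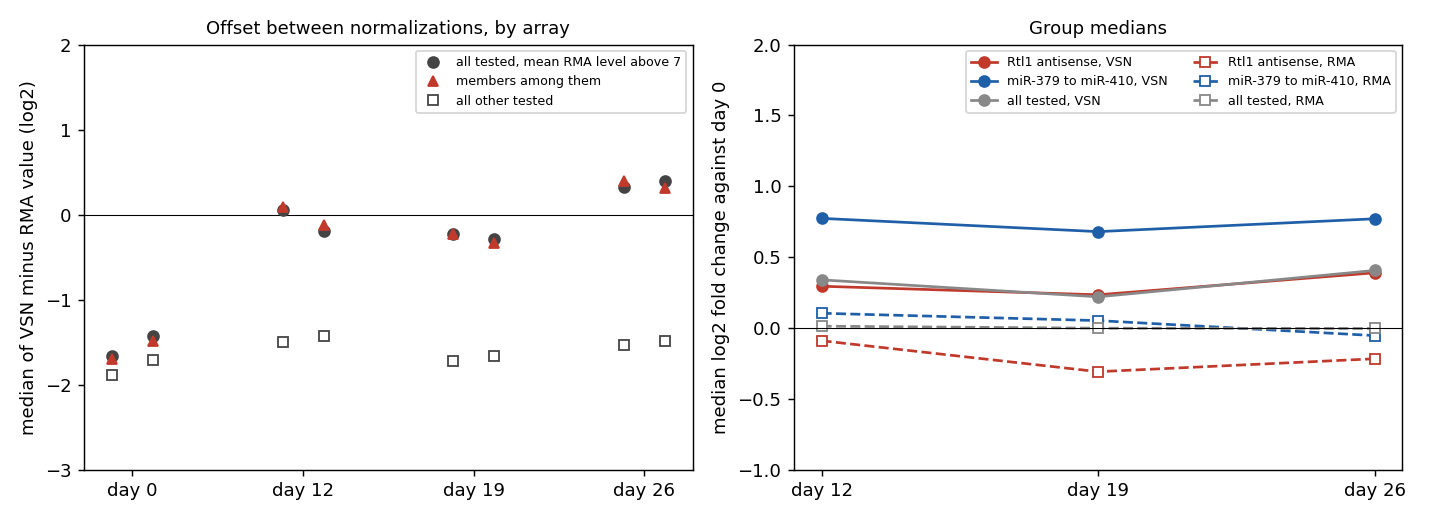
Left, median of VSN minus RMA (y axis, log2) on each Affymetrix array (x axis), for tested miRNAs with a mean RMA value above 7, the 8 members among them and all other tested miRNAs. Right, median log2 fold change against day 0 (y axis) by day (x axis) of the Rtl1 antisense group, the miR-379 to miR-410 group and all tested miRNAs on VSN and RMA. The bright miRNAs lie lowest on the 2 day 0 arrays, and the Rtl1 antisense group lies below the miR-379 to miR-410 group at each day on both scalings.

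For 10 hairpins both arms were tested members, and the difference between the arms, 5p minus 3p, was followed over the days within each array. Hairpins with an arm outside the member list were not compared in this way. Because each arm has its own probe, its size has no meaning, and only its change is given. On Affymetrix VSN the day 0 values lay outside all later ones for 3 of these hairpins, miR-409, miR-154 and miR-369, which are named for that reason after their values were seen. For miR-409 the difference was -4.54 and -3.87 at day 0 and -2.65 to -1.23 later, a change of 2.57, 1.56 and 2.74 at days 12, 19 and 26. On RMA the change was 3.08, 2.22 and 3.24. miR-409-5p measured 3.54 and 4.61 at day 0, 6.27 and 5.76 at day 12, 5.21 and 4.71 at day 19 and 5.72 and 5.70 at day 26 on VSN and rose by 1.94 ± 0.49 (adjusted p = 0.00913) at day 12 and 1.64 ± 0.49 (adjusted p = 0.0186) at day 26 by limma, while the 3p arm fell on RMA, as given above. The call at day 12 was lost without day 0 a or day 12 a (adjusted p up to 0.0811), and that at day 26 was lost without day 0 a, day 26 a or day 26 b (adjusted p up to 0.123).

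For miR-154 the difference of arms was 1.96 and -0.21 at day 0 and 3.0 to 4.05 later on VSN, and for miR-369 it was 0.56 and 0.64 at day 0 and 2.02 to 3.33 later. The 3p arm of miR-369 is listed by the study as absent on all Affymetrix arrays. In miR-154 the 5p arm was called at day 26 and the 3p arm, miR-154*, was not, with 1.77 and 3.52 at day 0, 0.86 and 1.32 at day 12, 1.79 and 1.11 at day 19 and 1.59 and 1.82 at day 26, 1 day 0 array lying above the rest and the other within the later range. Of the hairpins compared, those with day 0 outside the later values on RMA were miR-337, miR-409 and miR-369, so that miR-409 and miR-369 were common to both scalings. The change in arms was not tested on its own.

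**Figure D4:**
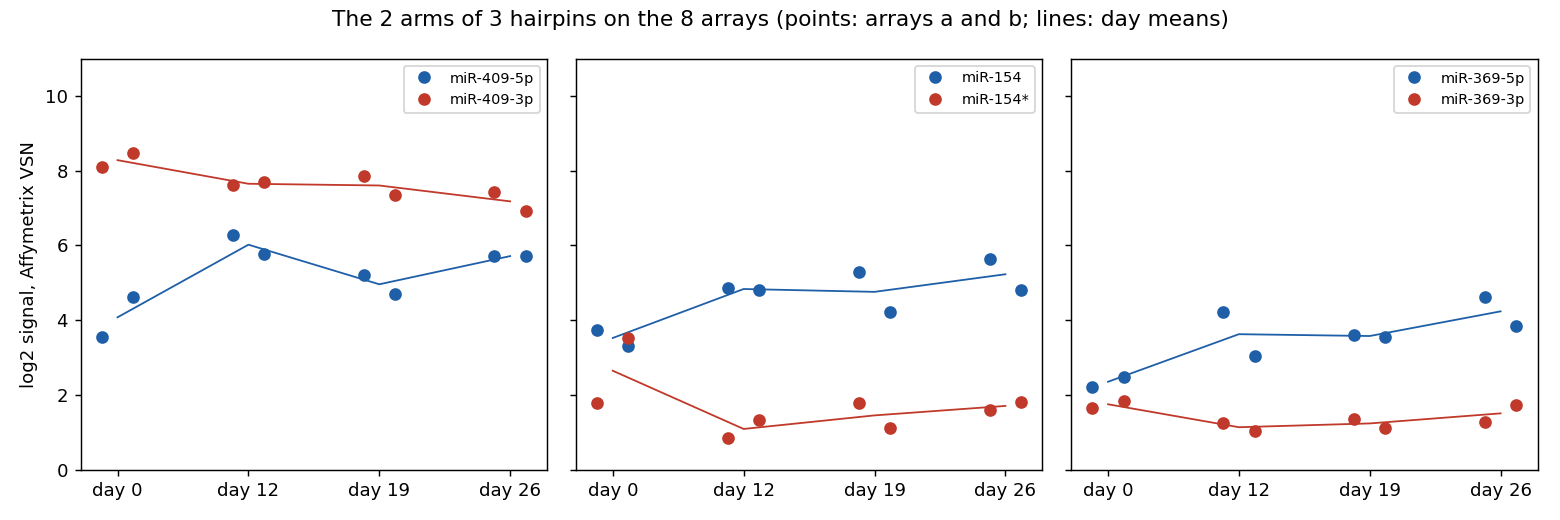
Affymetrix VSN values (y axis, log2) by day (x axis) of both arms of the hairpins miR-409, miR-154 and miR-369, culture a and b as separate points and lines through the day means. The 5p arm is higher on every later array than on the day 0 arrays in each panel, while the 3p arm of miR-409 is lower.

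Probes of the same region that the member list leaves out were counted as well. Of 19 such other strands and neighbouring miRNAs 18 were on both arrays and 11 were tested, and at each day none rose and 1, miR-485*, fell on both Affymetrix scalings. Of all tested miRNAs 26.2%, 22.7% and 29.5% rose and 6.19%, 10.9% and 10.3% fell on VSN. On RMA 17.7%, 17.9% and 19.8% rose and 15.7%, 18.4% and 20.4% fell. The VSN values of miR-485* were 4.89 and 6.32 at day 0, 3.43 and 2.40 at day 12, 3.69 and 3.67 at day 19 and 2.23 and 2.73 at day 26. The fold changes were -2.69, -1.92 and -3.13 (limma adjusted p = 0.00277, 0.0201 and 0.000761). On Febit VSN miR-485* changed by 1.52, -0.44 and -0.04 and on Febit non-VSN by 0.22, 0.50 and 0.08, none of them called. miR-485, the member from the other arm of that hairpin, measured 3.18 and 4.18 at day 0, 4.48 and 3.88 at day 12, 4.76 and 4.78 at day 19 and 4.75 and 3.77 at day 26 on Affymetrix VSN and was not called against day 0 (0.50, 1.09 and 0.58). There miR-485* read above miR-485 on both day 0 arrays and below it on every later array. This hairpin was not among those whose arms were compared above. The only tested neighbour called against day 0 on Febit VSN was miR-1188, which fell at day 12 (-2.22, limma adjusted p = 0.0493), where 8.45% of all tested miRNAs fell.

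Between the later days few members were called. On Affymetrix VSN limma called no member between days 12 and 19, 12 and 26 or 19 and 26, with 3, 4 and 7 members at an unadjusted p under 0.05, where of all tested miRNAs 0.412% rose from day 12 to 19 and 3.92% rose and 0.206% fell from day 12 to 26. On RMA 3 members fell from day 12 to 26, miR-127, miR-134 and miR-541 (5.77% of 52, beside 4.33% of all that fell and 4.12% that rose). From day 19 to 26, 2 fell, miR-134 and miR-370 (3.85% of 52, beside 0.412% of all in each direction), and both calls were lost in every fit that left out 1 array.

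Values of markers of other cells moved in the same comparisons. The summed level of 5 fibroblast miRNAs, on the log2 scale of Affymetrix VSN, was 7.26 and 5.60 at day 0, 7.56 to 8.13 at days 12 and 19 and 9.41 and 9.27 at day 26, and 1, 1 and 2 of the 5 rose. The later sums were largely miR-152, which alone measured 1.61 and 3.25 at day 0, 7.11 to 7.95 at days 12 and 19 and 8.97 and 9.05 at day 26. The list did not move as one: miR-214 changed by -1.96, -1.86 and -0.63 and miR-199a-5p by -1.07, -1.63 and 0.26 at days 12, 19 and 26, none of them called, and the other call was a rise of miR-199b at day 26. On RMA the sums were 8.82 and 7.0 at day 0, 7.98 to 8.60 at days 12 and 19 and 9.13 and 9.02 at day 26. Of 6 nervous tissue miRNAs 2 were tested, 1 of which rose and 1 fell at each day, and their summed VSN level of 5.43 and 6.72 at day 0 overlapped that of later days, 5.56 to 7.05. Neither of 2 endothelial miRNAs was called. The part of these cells in the members' changes was not tested.

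The Febit arrays read most members close to their background, as they did most miRNAs. On 7 Febit arrays the median raw signal of all miRNAs lay between 928 and 992, and on the day 26 b array it was 228. The median of the members lay between 908 and 996 on the same 7 arrays and was 216 on day 26 b. Above 2 times the median of its array stood no member on 6 arrays, 1 on day 12 a (miR-667, at 3953) and 3 on day 26 b. Of all miRNAs 4.2% to 9.6% stood above that limit on the 7 arrays and 19.4% on day 26 b. Among the 52 tested members only 33 to 44 distinct values occurred per Febit VSN array, several members sharing the same number to 5 decimals, where Affymetrix VSN had 50 to 52.

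Against day 0, few members were called on Febit VSN. At day 12, 0 members rose, beside 5.77% of all tested miRNAs, and 4 fell (7.69% of 52, beside 8.45% of all). At day 19 limma called none, with 9 at an unadjusted p under 0.05, where 5.36% of all rose and 2.47% fell. At day 26, 1 rose (1.92%, beside 10.5% of all) and none fell, beside 2.27% of all. With the non-VSN values limma called no member on any of the 3 days (1, 0 and 1 at an unadjusted p under 0.05), where 4.74%, 4.95% and 5.36% of all tested miRNAs rose and 1.86%, 2.27% and 2.47% fell. In the non-VSN set the arrays titled day 12 a and day 19 b follow each other's raw array. With them exchanged the counts of members were 2, 1 and 0.

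The members that fell on Febit VSN at day 12 were miR-376b, miR-382, miR-409-5p and miR-666-5p. Of these, miR-376b is listed by the study as absent on all Febit arrays. miR-376b, of a family known for RNA editing in brain, measured 7.44 and 9.11 at day 0, 5.79 and 4.33 at day 12, 7.14 and 6.82 at day 19 and 6.61 and 5.86 at day 26, with day 12 lowest. It fell at day 12, with -3.22 ± 0.77 (SE, limma adjusted p = 0.0258), a call that was lost without day 0 b, day 12 a, day 12 b, day 19 a, day 19 b, day 26 a or day 26 b (adjusted p up to 0.137). On the Affymetrix side miR-376b measured 6.06 and 5.97 at day 0, 5.16 and 5.70 at day 12, 5.24 and 5.22 at day 19 and 6.38 and 5.39 at day 26 on VSN, not called, and fell on RMA with -1.58, -1.60 and -1.51. miR-666-5p measured 7.49 and 7.73 at day 0, 5.15 and 5.40 at day 12, 6.67 and 7.33 at day 19 and 7.14 and 6.95 at day 26 on Febit VSN and fell with -2.33 ± 0.59 (SE, limma adjusted p = 0.0329) at day 12, a call that was lost without day 12 a, day 12 b, day 19 a, day 19 b, day 26 a or day 26 b (adjusted p up to 0.107). On Affymetrix VSN it read 4.07 and 3.33 at day 0, 4.21 and 4.74 at day 12, 3.71 and 3.31 at day 19 and 4.06 and 3.12 at day 26 and was not called.

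miR-382 and miR-409-5p were called on both platforms at day 12, in opposite directions. On Febit VSN miR-382 measured 7.07 and 7.24 at day 0, 5.43 and 3.74 at day 12, 8.25 and 8.20 at day 19 and 8.43 and 7.57 at day 26, the day 12 arrays lying below all others. It fell there with -2.57 ± 0.70 (SE, limma adjusted p = 0.0388), and on Affymetrix VSN, with 6.78 and 7.05 at day 0, 8.65 and 8.38 at day 12, 8.38 and 7.90 at day 19 and 8.71 and 8.08 at day 26, it rose by 1.60 ± 0.45 (SE, limma adjusted p = 0.017). The Febit call was lost in each of the 8 fits that left out 1 array (adjusted p up to 0.189), and the Affymetrix call was lost without day 0 a or day 12 a (adjusted p up to 0.11). On RMA the day 12 change of miR-382 was 0.05 and that at day 26 -0.50, where VSN had a rise of 1.48 ± 0.45 (adjusted p = 0.0201).

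For miR-409-5p the Febit VSN values were 7.13 and 6.45 at day 0, 3.40 and 5.17 at day 12, 7.45 and 7.44 at day 19 and 6.97 and 6.63 at day 26, again lowest at day 12. The fold change of -2.50 ± 0.71 (SE, limma adjusted p = 0.0438) stood against the Affymetrix rise of 1.94, and it was lost without day 0 a, day 12 a, day 19 a, day 19 b, day 26 a or day 26 b (adjusted p up to 0.229). Of all tested miRNAs, 6 were called in opposite directions at day 12, the 2 members included. No member was called in the same direction on both VSN sets at any day.

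On Febit the only member that rose against day 0 was miR-434-3p. It measured 6.94 and 6.16 at day 0, 6.38 and 5.40 at day 12, 8.85 and 8.41 at day 19 and 8.79 and 8.91 at day 26, the 4 arrays of days 19 and 26 lying above the 4 others. The rise at day 26 was 2.30 ± 0.63 (SE, limma adjusted p = 0.0409), and it was lost without day 0 b, day 19 a, day 19 b, day 26 a or day 26 b (adjusted p up to 0.176). The Affymetrix VSN value had the same sign and was not called.

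**Figure D5:**
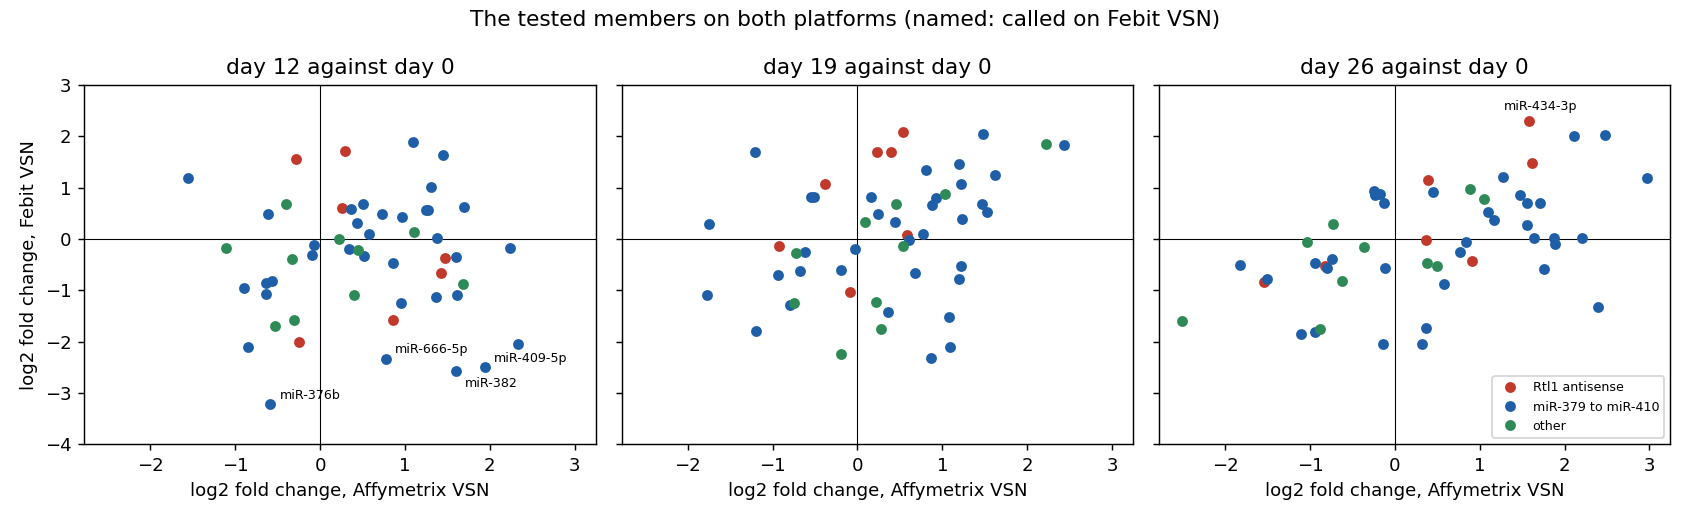
Log2 fold change against day 0 of the 52 tested members on Affymetrix VSN (x axis) and Febit VSN (y axis) at days 12, 19 and 26, coloured by their place in the region, with those called on Febit VSN named. At day 12 miR-382 and miR-409-5p lie at the lower right, and at day 26 most points share their sign on both axes (35 of 52).

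Over all 52 members the platforms had the same sign for 29, 36 and 35 at days 12, 19 and 26, close to the share among all tested miRNAs (55.5%, 66.8% and 68.2%). Spearman's rho across the members, which share the RNAs and the arrays, was -0.0, 0.35 and 0.53. By group, the Rtl1 antisense members lay below the miR-379 to miR-410 members on Febit VSN by 0.17 and 0.03 at days 12 and 26 and above them by 0.77 at day 19, unlike on Affymetrix. On Febit non-VSN they lay above the larger group at each day, by 0.42, 0.47 and 0.08. Array by array against the day 0 means, the Febit VSN difference was above 0 on every later array. It was 0.108 and 0.139 at day 12, 0.764 and 0.943 at day 19 and 0.153 and 0.255 at day 26.

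Between later days Febit VSN called 7 members from day 12 to 19, of which 5 rose (9.62% of 52, beside 10.5% of all) and 2 fell (3.85%, beside 3.3% of all). From day 12 to 26, 3 rose (5.77%, beside 9.48% of all) and 1 fell (1.92%, beside 0.619% of all), and none was called from day 19 to 26 (1 at an unadjusted p under 0.05 by limma). miR-411 measured 7.82 and 5.96 at day 0, 4.75 and 4.94 at day 12, 8.49 and 7.80 at day 19 and 8.34 and 7.83 at day 26 on Febit VSN, the day 12 arrays being lowest. miR-154* measured 6.23 and 5.45 at day 0, 6.78 and 7.27 at day 12, 4.51 and 3.58 at day 19 and 3.85 and 4.21 at day 26, with day 12 highest, and miR-485 measured 6.03 and 5.96 at day 0, 6.24 and 7.11 at day 12, 3.75 and 4.02 at day 19 and 4.83 and 5.41 at day 26, with days 19 and 26 below the rest. miR-323-3p measured 7.07 and 7.14 at day 0, 5.87 and 4.12 at day 12, 7.24 and 7.57 at day 19 and 6.97 and 6.24 at day 26, lowest at day 12. In these 4 members both day 12 arrays stood at 1 end of the 8, and no call between later days was made with the non-VSN values. The study lists miR-154*, miR-485 and miR-323-3p as absent on all Febit arrays.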

How the data were processed

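The 8 RNAs, 2 cultures at each of 4 days, had been hybridized once to each platform, and arrays were assigned to day, culture and data set by their titles. For Affymetrix (FlashTag biotin labelling) the authors deposited log2 values after RMA and log2 values after VSN. For Febit (on-chip enzymatic labelling, 8 features per miRNA) the authors deposited log2 values after background correction, the median over features and quantile normalization, called non-VSN here, log2 values after VSN, and the linear intensity of each feature without background correction. The labels name RMA and affy, and versions of these are not given in the sources used here.

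Tested were the miRNAs found on both arrays for which the study gives a present call on either platform at any day. limma 3.58.1 in R 4.3.3 fitted 1 mean per day to the 8 arrays of a data set, with 4 residual degrees of freedom, 6 comparisons, empirical Bayes variances and Benjamini-Hochberg adjustment per comparison. The number of arrays limits the precision. The paper calls the cultures biological duplicates, and p-values measure only the spread between them. The fit was tested on simulated arrays. Values of every array are given for 26 members: the 12 of largest mean change among those called on Affymetrix VSN, up to 6 likewise on Febit VSN, members called on both platforms, members called between later days, and the Rtl1 antisense group. The members, lists and tests were chosen with earlier results of these data known. Neighbours and cell type markers are lists of names that were counted in the same fits. Alternatives were the other normalization, other tested sets, centring, a replicate block, a variance trend, the exchanged arrays and leaving out each array, and after the data had been seen also centred RMA and quantile-normalized VSN values. Sequences and positions are from RefSeq (GRCm38.p6), and older miRNA names were assigned to arms by hand. Tables were joined with pandas 2.3.3 and plotted with matplotlib 3.10.9, both under Python 3.11.15.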

Additional observations from a re-analysis of the deposited data

Results flagged for a closer look

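Some members differed between later days, so that their change against day 0 was not the same at each day by a test of the difference itself. On Affymetrix RMA, from day 12 to day 26, miR-127 changed by -1.25 (limma adjusted p = 0.00697), miR-134 by -0.96 and miR-541 by -1.13. The call of miR-127 was lost without day 12 a or day 26 a (adjusted p up to 0.056), and those of miR-134 and miR-541 were lost without any 1 of the 4 arrays of days 12 and 26. From day 19 to day 26 miR-134 changed by -1.25 and miR-370 by -1.59, and no call was left in any fit without 1 array.

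On Febit VSN 7 members differed between days 12 and 19, of which miR-323-3p, miR-154* and miR-485 are listed by the study as absent on all Febit arrays. Higher at day 19 were miR-382 by 3.64, miR-411 by 3.3, miR-409-5p by 3.16, miR-434-3p by 2.74 and miR-323-3p by 2.41, and miR-154* and miR-485 changed by -2.98 and -2.79 (limma adjusted p from 0.022 to 0.0492). Each of these calls was lost without any 1 of the 4 arrays of days 12 and 19. Between days 12 and 26, miR-382 changed by 3.42, miR-411 by 3.24, miR-434-3p by 2.96 and miR-154* by -2.99, and each call was lost without any 1 of the 4 arrays of these days. None of the Febit differences was called on Affymetrix VSN or with the Febit non-VSN values.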

How the results depend on the processing

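On Affymetrix VSN the number of members called at day 12 was 11, and it was 7 with arrays centred on the median and 7 with quantile-normalized values. At day 19 it was 4, and 14 with RMA, 14 with centred RMA, 10 with quantile-normalized values and 7 with the replicate block. RMA called 3 members between days 12 and 26 and 2 between days 19 and 26, where VSN called 0. Without 1 array the counts ranged from 2 to 13 at day 12 (2 without day 12 a), from 4 to 6 at day 19 and from 6 to 19 at day 26 (6 without day 26 a), and were 0 between later days. On Febit VSN the count at day 12 was 4, and 0 with the non-VSN values, 1 centred and 2 with the exchanged arrays. At day 19 it was 0, and 1 when centred and 1 with the exchanged arrays. At day 26 it was 1, and 0 with the non-VSN values, 0 exchanged, 3 with miRNAs present on Febit and 3 with a variance trend. Between days 12 and 19 it was 7, and 0 with the non-VSN values, 0 exchanged and 4 with miRNAs present on Febit, and between days 12 and 26 it was 4, and 0 with the non-VSN values and 1 exchanged. Without 1 array the Febit counts ranged from 0 to 6 at day 12, 0 to 6 at day 19, 0 to 3 at day 26, 0 to 17 between days 12 and 19 and 0 to 7 between days 12 and 26, and were 0 between days 19 and 26.

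The deviations of cultures with the same letter correlated by 0.35 on Affymetrix VSN and 0.53 on RMA between days 12 and 19 and by 0.06 or less between day 0 and each later day on both, so the letters were not taken as pairs. With them as a replicate block limma called 15, 7 and 17 members by day 12, 19 and 26 with Affymetrix VSN values, against 3, 0 and 1 with those of Febit VSN, and 27 of 27 Affymetrix and 4 of 5 Febit calls of single members were kept. Of these 32 calls 7 were kept in all 8 fits without 1 array. RMA kept 11 of the 27 Affymetrix calls and centring 10. A rise was turned for miR-431 at day 12 (-0.09 on RMA and -0.362 on centred RMA), for miR-382 at day 12 (-0.224 on centred RMA) and for miR-382 at day 26 (-0.5 on RMA, -0.709 on centred RMA and -0.241 with quantile-normalized values). The cause was not tested.

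The difference of medians between the Rtl1 antisense and the miR-379 to miR-410 group was -0.194 at day 12 and -0.164 at day 26 on RMA, and -0.126 at day 26 with untested members included. At the 3 days it was -0.175, 0.775 and -0.028 on Febit VSN and 0.421, 0.471 and 0.081 on Febit non-VSN. On Affymetrix VSN without 1 array it ranged from -0.834 to 0.104 at day 12, from -0.519 to -0.224 at day 19 and from -0.494 to -0.014 at day 26. On Febit the closeness of most members to the array background limits what can be detected.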
